A study of Homo sapiens with 12 samples.

Results

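Circadian clock genes in the HK-2 kidney cell line were followed through exposure to the compound labelled CdCl and through time in culture. The set names 10 genes of the negative limb of the clock and its direct targets: PER1, PER2, PER3, CRY1, CRY2, BHLHE40, BHLHE41, NR1D1, NR1D2 and DBP. A gene was read from the probe sets annotated to its symbol alone, and where it had several the one with the highest average signal on the 12 arrays was used. By this rule 8 of the 10 had a value, out of 19775 genes on the array. PER1 had 4 probe sets, all of them annotated to MIR6883 as well, and NR1D1 had 3, all annotated to THRA as well, so neither gene was assigned a value. DBP exceeded a log2 signal of 4 on 2 arrays and missed the filter of 3 arrays, which left 7 clock genes among the 10683 genes tested.

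In the mammalian clock the transcription factors CLOCK and BMAL1 bind E-box elements and switch on the PER and CRY genes, whose proteins return to the nucleus and inhibit them. The same factors drive NR1D1 and NR1D2, nuclear receptors that repress BMAL1 through ROR elements, DBP, an activator at D-box elements, and BHLHE40 and BHLHE41, which compete for E-boxes. In the kidney this loop times tubular transport of salt and water, and in cultured cells it can be reset by a change of medium or by glucocorticoid.

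The HK-2 line was made by immortalising epithelium of the human proximal tubule. The groups were cells exposed to CdCl for 48 h, control cells given vehicle for 48 h, cells exposed to CdCl for 12 h and control cells given vehicle for 12 h, with 3 biological replicates each and 1 Affymetrix array per replicate. Every group grew in the same medium, which held hydrocortisone, a glucocorticoid, beside epidermal growth factor, insulin, transferrin and selenite, and was seeded the day before treatment. The dose and the hour of day at harvest are not given in the sources used here. With 2 harvest times, no period or phase of a rhythm can be read from these values. Each sample is a bulk culture, so fewer cells that express a gene and less RNA of it per cell cannot be told apart.

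With the Affymetrix controls left out, arrays of the same group correlated at 0.9965 to 0.9982 and arrays of different groups at 0.9731 to 0.9890. HMOX1, the haem oxygenase gene used to check the exposure, averaged 13.98 in CdCl cells and 7.64 in control cells at 48 h on the log2 scale. The 5 epithelial markers (KRT8, KRT18, KRT19, EPCAM and CDH1) lay between 6.61 and 13.32, whereas the 6 proximal tubule markers (GGT1, ANPEP, AQP1, LRP2, CUBN and SLC34A1) all lay between 2.59 and 3.38, under the filter. Of 4 fibroblast markers DCN and COL1A1 were tested and COL1A2 and PDGFRB lay under the filter, as did all 3 endothelial and all 3 leukocyte markers that had a value. Poly-A spike-ins, added before labelling, lay at 5.99 to 6.92 in CdCl and 6.29 to 6.51 in control arrays at 48 h, and at 7.31 to 7.32 in CdCl and 6.69 to 6.96 in control arrays at 12 h. The signal of the 3′ actin probe set minus that of its 5′ counterpart, a gap that widens as RNA degrades, was 1.40 to 1.82 in CdCl and 1.36 to 1.57 in control arrays at 48 h, and 1.70 to 1.79 in CdCl and 1.71 to 2.11 in control arrays at 12 h. CdCl 48 h replicate 2 stood apart from its group in both measures, with spike-ins at 5.99 against 6.90 and 6.92 and an actin gap of 1.40 against 1.67 and 1.82. Without it the CdCl changes at 48 h were -2.37 for PER2, -0.77 for PER3, 0.70 for CRY1, -0.45 for BHLHE41 and -0.60 for NR1D2, and all 5 passed (adjusted p of 1.5e-05 to 0.0029). The part of the other array differences in the results below was not tested.

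Between 12 h and 48 h PER2, NR1D2 and BHLHE41 rose in control cells, and at 48 h each of them was lower in CdCl cells than in control cells. NR1D2 also rose in CdCl cells, where the change of PER2 did not pass. On its brightest probe set only, BHLHE41 rose in CdCl cells and was already lower with CdCl at 12 h. CRY1 was higher and PER3 lower with CdCl at both times. BHLHE40 was higher with CdCl at 12 h and did not pass the test at 48 h, and CRY2 passed no test. In the comparison of CdCl with control at 48 h, 1 of the 7 clock genes was higher and 4 were lower, where 26.5% of all genes tested were higher and 28.0% lower. At 12 h 2 were higher and 2 lower, against 16.7% and 39.7% of all genes. Between 12 h and 48 h 2 of the 7 rose and 3 fell in CdCl cells, against 34.7% and 27.6% of all genes, and 3 rose and 1 fell in control cells, against 23.4% and 33.5%. For the difference between the CdCl effects, 48 h minus 12 h, 0 of the 7 were above and 3 below, against 27.0% and 13.0% of all genes.

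Large shares of all genes changed in each comparison, and the counts are to be read against them. The median change of the 7 was -0.48 on the log2 scale with CdCl at 48 h and -0.01 at 12 h, beside medians of -0.02 and -0.16 over all genes tested. Changes at 12 h can be read relative to that median of all genes. As an alternative, each array was centred on the median of its tested genes, which takes the median tested gene as unchanged. After this centring the 4 clock gene calls at 12 h stood, with changes of 1.04 for CRY1, 0.95 for BHLHE40, -0.33 for PER3 and -0.21 for BHLHE41. For the difference between the CdCl effects the median was -0.33 over the 7 and 0.13 over all genes.

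**Figure D1:**
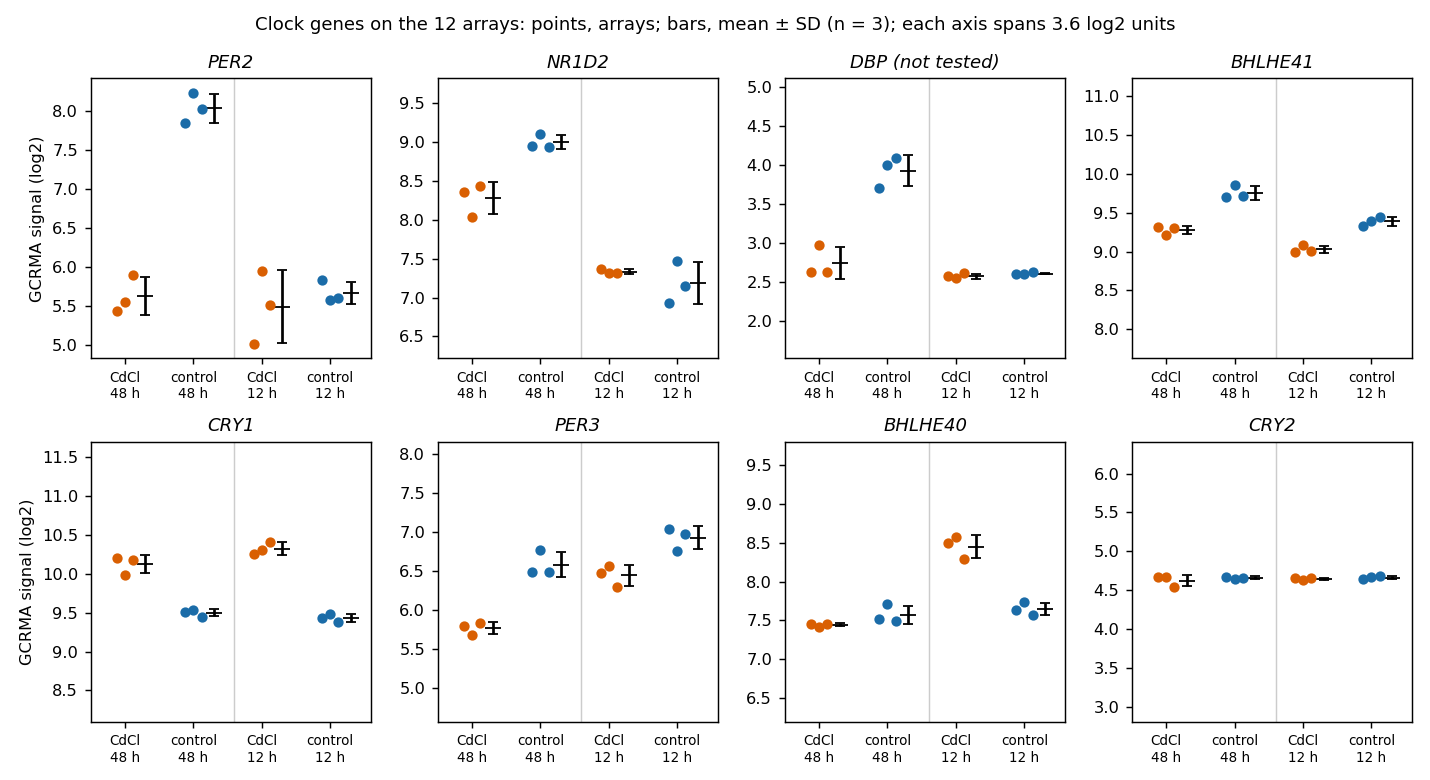
Log2 GCRMA signal (vertical axis) of the 8 clock genes with a value, on each array of the 4 groups (horizontal axis); orange points are CdCl arrays, blue points control arrays, and bars give the mean ± SD of 3 arrays. PER2, NR1D2, DBP and BHLHE41 are highest in control cells at 48 h, CRY1 is high in CdCl cells at both times, and CRY2 stays between 4.54 and 4.68 on all arrays.

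The period genes PER2 and PER3 encode the proteins that, bound to cryptochromes, inhibit CLOCK and BMAL1. At 48 h PER2 had signals of 5.43, 5.55 and 5.90 in CdCl cells, against 7.85, 8.23 and 8.02 in control cells. At 12 h it had 5.01, 5.95 and 5.51 in CdCl cells, against 5.82, 5.58 and 5.59 in control cells. All 3 control arrays at 48 h thus lay more than 1 log2 unit above the other 9 arrays, which overlapped.

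PER2 was 5.32-fold lower with CdCl at 48 h (log2 change -2.41 ± 0.20, SE, adjusted p = 1.7e-06). Its change at 12 h, -0.18 ± 0.20, did not pass the test (adjusted p = 0.49), with a 95% interval of -0.63 to 0.27. Between 12 h and 48 h PER2 changed by 0.14 ± 0.20 in CdCl cells, which did not pass (adjusted p = 0.59, 95% interval -0.31 to 0.59), whereas it rose 5.17-fold in control cells (2.37 ± 0.20, adjusted p = 1.7e-06). The difference between the CdCl effects at 48 h and 12 h, which is also the difference between these time courses, was -2.23 ± 0.29 (adjusted p = 0.00016). The second probe set of PER2 stayed between 2.12 and 2.15 on every array, near the low end of the table.

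PER3, the family member whose loss leaves the mouse clock largely running, was lower with CdCl at both times. At 48 h its signals were 5.79, 5.68 and 5.84 in CdCl cells and 6.49, 6.77 and 6.48 in control cells. At 12 h they were 6.47, 6.56 and 6.30 in CdCl cells and 7.04, 6.76 and 6.98 in control cells. The CdCl arrays lay below the control arrays at each time, and the CdCl arrays at 48 h below all others.

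With CdCl PER3 was 1.76-fold lower at 48 h (-0.81 ± 0.10, adjusted p = 4.9e-05) and 1.40-fold lower at 12 h (-0.48 ± 0.10, adjusted p = 0.0021). The difference between these effects, -0.33 ± 0.15, did not pass (adjusted p = 0.098), although it did after centring (-0.46, adjusted p = 0.022) or quantile normalization of the arrays (-0.37, adjusted p = 0.037). PER3 fell with time in CdCl cells (-0.68 ± 0.10, adjusted p = 0.00014). In control cells its change was also a fall (-0.35 ± 0.10, adjusted p = 0.014), with overlapping arrays, and that call ended without control 12 h replicate 1 (-0.29), control 48 h replicate 1 or control 48 h replicate 3 (both -0.30), with adjusted p of 0.054 to 0.058. The other 3 probe sets of PER3 lay between 1.90 and 2.89 on all arrays.

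The cryptochromes CRY1 and CRY2 are the strongest repressors of the loop. CRY1 had signals of 10.20, 9.99 and 10.18 in CdCl cells and 9.52, 9.53 and 9.44 in control cells at 48 h. Its signals at 12 h were 10.26, 10.30 and 10.42 in CdCl cells and 9.44, 9.48 and 9.38 in control cells. No CdCl array overlapped a control array at either time.

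CRY1 was 1.55-fold higher with CdCl at 48 h (0.63 ± 0.07, adjusted p = 2.6e-05) and 1.85-fold higher at 12 h (0.89 ± 0.07, adjusted p = 2.2e-06). The effect at 48 h minus that at 12 h was -0.26 ± 0.11 and did not pass (adjusted p = 0.068), although it did after centring of the arrays (-0.39, adjusted p = 0.011). Over time it fell by 0.20 ± 0.07 on the log2 scale in CdCl cells (adjusted p = 0.037). This call ended with a replicate block (adjusted p = 0.062), with quantile normalization (adjusted p = 0.078) and with the compared arrays alone (adjusted p = 0.087). It also ended without CdCl 12 h replicate 2 (-0.21), CdCl 12 h replicate 3 (-0.15) or CdCl 48 h replicate 2 (-0.13), with adjusted p of 0.062 to 0.14. In control cells CRY1 changed by 0.06 ± 0.07 (adjusted p = 0.49, 95% interval -0.10 to 0.23). Of the 7 clock genes CRY1 alone passed as higher at both times. CRY2 lay between 4.54 and 4.68 on all 12 arrays, with group SDs of 0.011 to 0.072. It is above the filter, but a signal this flat may not be above background, which was not tested, so no change or lack of one is read from it.

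**Figure D2:**
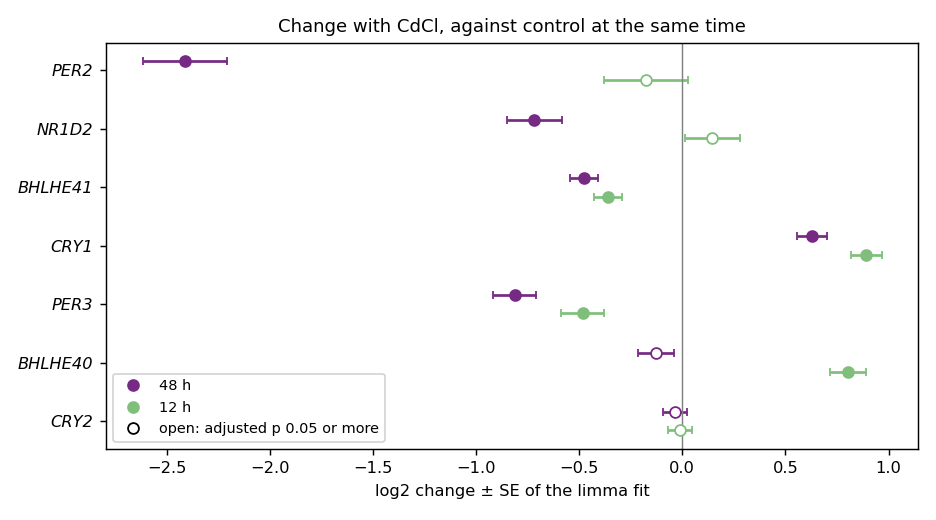
Log2 change with CdCl against control (horizontal axis) of the 7 clock genes tested, at 48 h (purple) and 12 h (green), with the SE of the limma fit; filled points have an adjusted p under 0.05. PER2 at 48 h is the widest change, -2.41, and CRY1 is on the positive side at both times.

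NR1D2, also called REV-ERB beta, and DBP are direct targets of CLOCK and BMAL1. NR1D2 signals were 8.36, 8.04 and 8.44 in CdCl cells and 8.96, 9.10 and 8.94 in control cells at 48 h. At 12 h they were 7.37, 7.31 and 7.31 in CdCl cells and 6.93, 7.47 and 7.15 in control cells. Groups overlapped at 12 h and were apart at 48 h, and every array at 48 h lay above every array at 12 h.

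NR1D2 rose 1.93-fold with time in CdCl cells (0.95 ± 0.13, adjusted p = 6.6e-05) and 3.51-fold in control cells (1.81 ± 0.13, adjusted p = 4.5e-07). At 48 h it was 1.64-fold lower with CdCl (-0.72 ± 0.13, adjusted p = 0.00073), and at 12 h its change of 0.15 ± 0.13 did not pass (adjusted p = 0.37, 95% interval -0.15 to 0.44). The effects at 48 h and 12 h differed by -0.86 ± 0.19 (adjusted p = 0.0038). On the second NR1D2 probe set the CdCl change was -1.10 ± 0.19 at 48 h and, with the opposite sign to the first, -0.33 ± 0.19 at 12 h, where it too missed the threshold (adjusted p = 0.17). Over time that probe set rose by 0.76 ± 0.19 in CdCl cells and 1.53 ± 0.19 in control cells (adjusted p = 0.0053 and 4.6e-05), so the rise and the lower level at 48 h were seen on both probe sets.

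DBP, whose protein activates D-box genes and whose transcript has a wide daily swing in mouse tissues, had signals of 2.62, 2.97 and 2.62 in CdCl cells and 3.703, 4.001 and 4.084 in control cells at 48 h. At 12 h they were 2.57, 2.54 and 2.61 in CdCl cells and 2.59, 2.60 and 2.62 in control cells. The control arrays at 48 h lay above the other 9. Apart from those controls no DBP signal exceeded 2.97, where the array medians over all probe sets lay at 2.97 to 3.04, so no fold is given. Only with no filter on low values was DBP tested, and there it passed as lower with CdCl at 48 h (adjusted p = 3.4e-05) and as higher at 48 h than at 12 h in control cells (adjusted p = 1.5e-05), with no size given for either. The second DBP probe set lay between 2.35 and 2.55 on all arrays, so both results rest on the brighter one.

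BHLHE40 and BHLHE41, also called DEC1 and DEC2, are repressors that bind E-boxes, and BHLHE40 is also induced by hypoxia and other stresses. BHLHE40 had 7.46, 7.42 and 7.46 in CdCl cells and 7.53, 7.71 and 7.49 in control cells at 48 h. Its signals at 12 h were 8.49, 8.58 and 8.29 in CdCl cells and 7.64, 7.74 and 7.57 in control cells. The CdCl arrays at 12 h stood above the other 9.

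With CdCl BHLHE40 changed by -0.13 ± 0.09 at 48 h, which did not pass (adjusted p = 0.24), although all 3 CdCl arrays lay below the controls. At 12 h it was 1.74-fold higher (0.80 ± 0.09, adjusted p = 1.6e-05), and the effects differed by -0.93 ± 0.12 (adjusted p = 0.00019). In CdCl cells it fell 2.01-fold between 12 h and 48 h (-1.004 ± 0.09, adjusted p = 1.3e-06), against -0.08 ± 0.09 in control cells (adjusted p = 0.49). The second BHLHE40 probe set changed by -0.51 ± 0.24 at 48 h (adjusted p = 0.10) and by 1.63 ± 0.24 at 12 h (adjusted p = 0.00019). On that probe set the signals at 48 h were 4.40, 3.64 and 4.40 in CdCl cells and 4.52, 4.77 and 4.67 in control cells. Those at 12 h were 5.50, 5.97 and 5.63 in CdCl cells and 3.80, 3.85 and 4.56 in control cells. The dimmer probe set thus placed the CdCl arrays at 12 h above the other 9 as well.

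BHLHE41 had 9.31, 9.22 and 9.30 in CdCl cells and 9.70, 9.86 and 9.71 in control cells at 48 h. At 12 h it had 9.00, 9.08 and 9.01 in CdCl cells and 9.33, 9.39 and 9.44 in control cells. CdCl arrays lay below control arrays at both times, and within each treatment the arrays at 48 h lay above those at 12 h.

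BHLHE41 was 1.39-fold lower with CdCl at 48 h (-0.48 ± 0.07, adjusted p = 9.5e-05) and 1.28-fold lower at 12 h (-0.36 ± 0.07, adjusted p = 0.00077). It rose 1.19-fold with time in CdCl cells (0.25 ± 0.07, adjusted p = 0.0065) and 1.29-fold in control cells (0.37 ± 0.07, adjusted p = 0.00062). Its CdCl effects at 48 h and 12 h differed by -0.12 ± 0.09, which did not pass (adjusted p = 0.35, 95% interval -0.32 to 0.09) but did with the mean of all its probe sets (-0.36, adjusted p = 0.017). The probe sets of this gene disagreed at 12 h, where a dimmer pair changed by 0.11 ± 0.16 and 0.08 ± 0.16 with neither passing (adjusted p = 0.61 and 0.72). With the mean of all its probe sets the 12 h change was -0.05 (adjusted p = 0.59), so the lower level at 12 h rests on the brightest probe set. At 48 h the same pair was lower with CdCl, by -0.49 ± 0.16 (adjusted p = 0.025) and -0.70 ± 0.16 (adjusted p = 0.0031), and the remaining probe set stayed between 3.12 and 3.25. Over time the pair changed by 0.25 ± 0.16 and 0.27 ± 0.16 in CdCl cells, with neither passing (adjusted p = 0.20 and 0.16), and rose by 0.85 ± 0.16 and 1.05 ± 0.16 in control cells (adjusted p = 0.00090 and 0.00017). The difference between the CdCl effects was -0.60 ± 0.23 (adjusted p = 0.061) and -0.78 ± 0.22 (adjusted p = 0.019) on the pair, so its size and its call depend on the probe set. The second of the pair lay between 3.76 and 5.27 on all arrays, around the filter of 4.

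**Figure D3:**
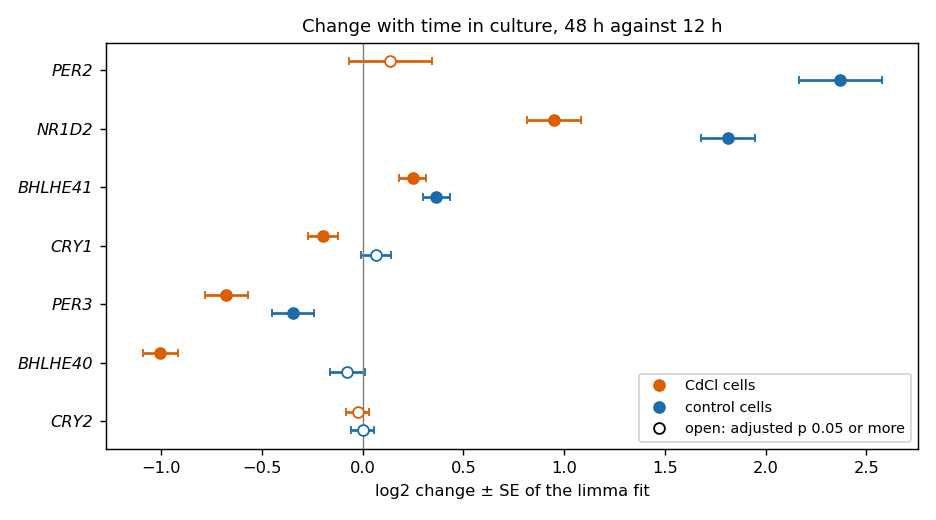
Log2 change between 48 h and 12 h (horizontal axis) of the 7 clock genes tested, in CdCl cells (orange) and control cells (blue), with the SE of the limma fit; filled points have an adjusted p under 0.05. PER2 changes by 0.14 in CdCl cells and 2.37 in control cells, and BHLHE40 by -1.004 in CdCl cells and -0.08 in control cells.

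The treatment and time comparisons share groups: the control cells at 48 h, where PER2, NR1D2 and BHLHE41 were at their highest, enter both the CdCl comparison at 48 h and the time comparison in control cells. Cell type markers moved over the same interval. Of the 5 epithelial markers 2 rose and 0 fell in CdCl cells, against 34.7% and 27.6% of all genes. In control cells 3 rose and 2 fell, against 23.4% and 33.5%. Among them CDH1 changed by 1.75 in CdCl cells and 0.97 in control cells, and KRT8 by -0.07 and -0.64. The fibroblast markers DCN and COL1A1 fell between 12 h and 48 h in CdCl cells (-0.74 and -0.58) and in control cells (-1.06 and -0.72), and DCN was 0.37 higher with CdCl at 48 h. The summed level of the 4 fibroblast markers was 11.03 to 11.36 in CdCl cells and 10.72 to 10.93 in control cells at 48 h, and 11.69 to 11.99 in CdCl cells and 11.77 to 11.87 in control cells at 12 h. That sum is set mostly by DCN, which lay between 10.59 and 11.91, whereas COL1A2 and PDGFRB lay between 2.48 and 2.75 throughout. The fibroblast list therefore does not show that fibroblasts were present. The part of the epithelial and fibroblast markers in the clock gene changes was not tested.

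The promoters of 5 clock genes that passed the test are shown because these genes differed in how they changed. Each window runs from 250 bases before to 50 after a RefSeq start on GRCh38.p14, 5′ to 3′ on the gene's strand, and capitals mark the E-box CACGTG, the E-prime box CACGTT, the D-box TTATGTAA or TTACGTAA, the ROR core AGGTCA and the cyclic AMP response element, each searched on both strands. The PER2 window lies at chr2:238288561-238288860 on the minus strand, the second of 2 NR1D2 windows at chr3:23945871-23946170 on the plus strand and the BHLHE41 window at chr12:26124988-26125287 on the minus strand. Those of CRY1 and BHLHE40 lie at chr12:107093500-107093799 on the minus strand and chr3:4979187-4979486 on the plus strand.
PER2: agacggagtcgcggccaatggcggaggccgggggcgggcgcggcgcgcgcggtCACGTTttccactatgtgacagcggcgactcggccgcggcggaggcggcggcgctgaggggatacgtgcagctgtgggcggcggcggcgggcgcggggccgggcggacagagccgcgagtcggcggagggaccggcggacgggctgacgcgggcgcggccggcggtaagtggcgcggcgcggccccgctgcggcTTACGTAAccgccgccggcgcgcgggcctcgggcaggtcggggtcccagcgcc
NR1D2: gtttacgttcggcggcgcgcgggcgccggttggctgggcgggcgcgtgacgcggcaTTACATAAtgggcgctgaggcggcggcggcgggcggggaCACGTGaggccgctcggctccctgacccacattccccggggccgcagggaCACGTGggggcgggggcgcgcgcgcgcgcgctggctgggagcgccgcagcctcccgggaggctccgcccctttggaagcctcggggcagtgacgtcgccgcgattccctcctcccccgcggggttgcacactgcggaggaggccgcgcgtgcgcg
BHLHE41: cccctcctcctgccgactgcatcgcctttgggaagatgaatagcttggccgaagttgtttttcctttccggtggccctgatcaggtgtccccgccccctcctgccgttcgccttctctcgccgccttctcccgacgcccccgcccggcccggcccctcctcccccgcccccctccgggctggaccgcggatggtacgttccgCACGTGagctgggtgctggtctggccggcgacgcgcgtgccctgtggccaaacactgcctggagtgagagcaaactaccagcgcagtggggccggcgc
CRY1: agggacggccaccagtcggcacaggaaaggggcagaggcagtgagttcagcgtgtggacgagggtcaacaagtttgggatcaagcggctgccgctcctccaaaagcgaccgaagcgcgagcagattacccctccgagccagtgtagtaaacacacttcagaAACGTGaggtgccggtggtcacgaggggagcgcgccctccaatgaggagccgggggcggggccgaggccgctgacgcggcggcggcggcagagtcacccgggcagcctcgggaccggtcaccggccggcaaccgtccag
BHLHE40: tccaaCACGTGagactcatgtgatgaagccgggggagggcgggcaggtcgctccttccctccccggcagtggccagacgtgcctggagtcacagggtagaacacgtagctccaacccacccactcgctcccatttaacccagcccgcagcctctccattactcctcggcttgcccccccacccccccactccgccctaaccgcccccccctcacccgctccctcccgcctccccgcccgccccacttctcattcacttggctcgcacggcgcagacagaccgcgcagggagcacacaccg

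The PER2 window holds an E-prime box that starts 197 bases before the start site and a D-box across it. The second NR1D2 window holds 2 E-boxes, 155 and 105 bases before its start, with a D-box at 194. The first NR1D2 window, not shown, holds none of the motifs searched. PER3, which also passed and is not shown, has a D-box in the first of its 2 windows. Neither PER3 window holds an E-box or an E-prime box. A single E-box lies 48 bases before the BHLHE41 start and 245 before that of BHLHE40, and CRY1 has an E-prime box 89 bases before its start. Over the 10 named genes, which have 13 windows, an E-box was present in 4 genes, an E-prime box in 4 and a D-box in 3, where 7.26%, 5.34% and 1.01% of all 35116 windows of this length hold them. The ROR core was in 2 of the 10 genes and 3 of the 13 windows (13.8% of all windows), and the cyclic AMP response element in 0 (1.85%). Every other motif searched was in as many of the 13 windows as genes.

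Elements bound by stress factors were searched in the same windows. The metal response core (TGCGCNC or TGCACNC) was in 4 of the 10 genes (29.6% of all windows), the antioxidant response core TGACNNNGC in 5 (13.3%) and the heat shock core GAANNTTC in 0 (6.77%). The antioxidant core occurs in the PER2 window, the CRY1 window and the second NR1D2 window, and in the PER2 window it overlaps the E-prime box. The glucocorticoid receptor core AGAACA was in BHLHE40 alone of the 10 (14.8% of all windows). DBP had no match to any of these motifs in its window, and a match is a description of the letters only.

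The activators that drive these genes were read from a list of 6 with a value, of which 4 were tested. BMAL1, the partner of CLOCK and the target of NR1D repression, had signals of 8.68, 8.55 and 8.83 in CdCl cells and 7.62, 7.58 and 7.92 in control cells at 48 h. At 12 h BMAL1 had 8.59, 8.60 and 8.77 in CdCl cells and 7.45, 7.44 and 7.21 in control cells. Its groups did not overlap at either time, and it was higher with CdCl by 0.98 ± 0.11 at 48 h (adjusted p = 1.7e-05) and 1.29 ± 0.11 at 12 h (adjusted p = 2.6e-06). CLOCK was lower with CdCl at 48 h (-0.52 ± 0.11, adjusted p = 0.0021) and at 12 h (-0.45 ± 0.11, adjusted p = 0.0047). BMAL2, a paralogue of BMAL1, was higher by 0.75 ± 0.17 and 0.69 ± 0.17 at these times. NPAS2, a paralogue of CLOCK, was lower at 12 h alone (-0.31 ± 0.06, adjusted p = 0.0012). This call ended after centring of the arrays (-0.16, adjusted p = 0.064) and with the mean of all its probe sets (-0.13, adjusted p = 0.11). RORA and RORB, activators of BMAL1, lay under the filter.

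The D-box factors related to DBP did not all change in the same direction. NFIL3, which represses at D-boxes, had 10.43, 10.41 and 10.40 in CdCl cells and 9.62, 9.68 and 9.68 in control cells at 48 h. At 12 h NFIL3 had 9.86, 9.87 and 9.82 in CdCl cells and 8.87, 8.80 and 8.94 in control cells. It was higher with CdCl by 0.76 ± 0.06 at 48 h and 0.98 ± 0.06 at 12 h (adjusted p = 8.4e-07 and 1.4e-07), and it rose with time under both treatments. TEF, an activator like DBP, was lower with CdCl at 48 h (-1.20 ± 0.14, adjusted p = 2.0e-05), and its call at 12 h (-0.40 ± 0.14, adjusted p = 0.030) ended without CdCl 12 h replicate 3 or control 12 h replicate 1, with adjusted p of 0.11 to 0.12, and after centring (-0.25, adjusted p = 0.17). HLF, the other activator, was lower at 12 h (-1.14 ± 0.10, adjusted p = 2.7e-06). Its call at 48 h (-0.29 ± 0.10, adjusted p = 0.025) ended on leaving out any of 5 single arrays, CdCl 48 h replicates 2 and 3 and all 3 controls at 48 h, with adjusted p of 0.053 to 0.083. Between 12 h and 48 h TEF changed by -0.21 ± 0.14 in CdCl cells (adjusted p = 0.21) and rose by 0.60 ± 0.14 in control cells (adjusted p = 0.0031).

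**Figure D4:**
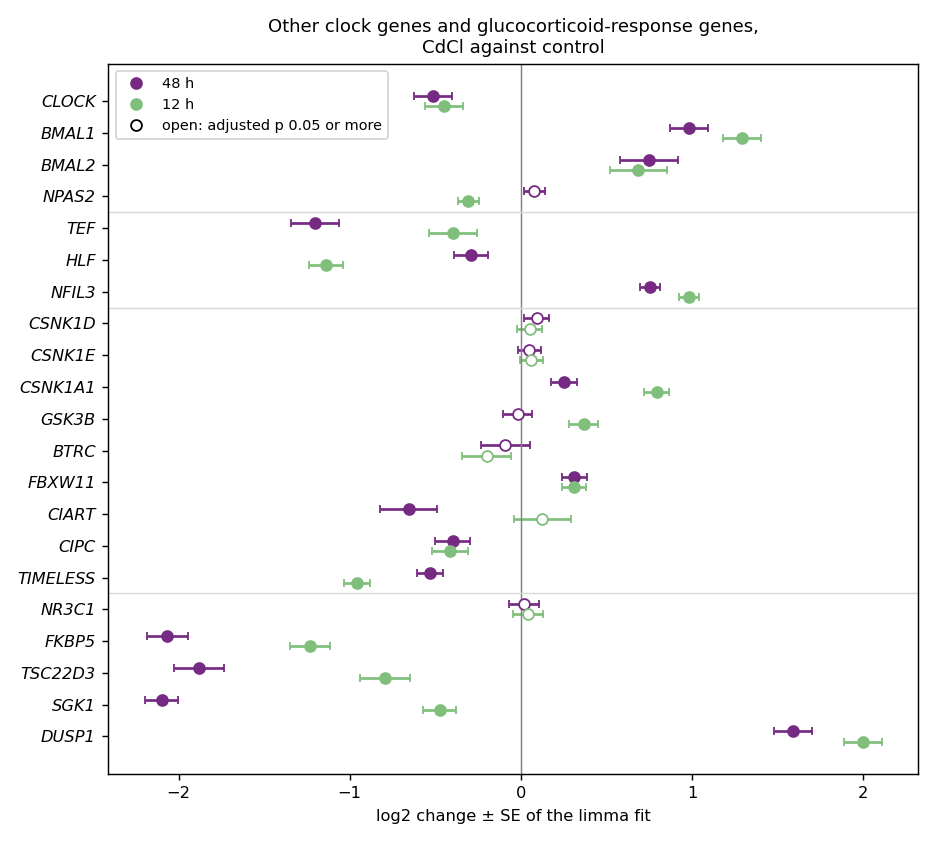
Log2 change with CdCl against control (horizontal axis) of the tested activators, D-box factors, regulators of PER and CRY and glucocorticoid response genes (top to bottom), at 48 h (purple) and 12 h (green), with the SE of the limma fit; filled points have an adjusted p under 0.05. BMAL1 and NFIL3 are positive at 48 h and 12 h, and FKBP5 and SGK1 are negative at both.

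Among 11 regulators of PER and CRY proteins with a value 9 were tested, and with CdCl at 48 h 2 were higher and 3 lower, where 26.5% and 28.0% of all genes were. At 12 h 3 were higher and 2 lower, where 16.7% and 39.7% of all genes were. FBXW11, a ubiquitin ligase subunit among those higher at 48 h (0.31 ± 0.07, adjusted p = 0.0030), missed the threshold with the mean of all its probe sets (0.20, adjusted p = 0.18). CSNK1A1, a casein kinase that phosphorylates PER proteins, was higher at 12 h (0.79 ± 0.08, adjusted p = 5.5e-06), and at 48 h (0.25 ± 0.08, adjusted p = 0.014) its call ended without control 48 h replicate 1 or 2, with adjusted p of 0.050 to 0.061. CSNK1D and CSNK1E, kinases that phosphorylate PER, and BTRC, a ubiquitin ligase subunit that then targets it, passed neither CdCl test. After centring of the arrays CSNK1D and CSNK1E passed as higher at 12 h (0.20 and 0.21, adjusted p = 0.035 and 0.034). With the mean of all its probe sets CSNK1D passed as lower at 12 h (-0.18, adjusted p = 0.014), so its direction depends on the setting. GSK3B was higher at 12 h (0.37 ± 0.08, adjusted p = 0.0029) and did not pass at 48 h (-0.02 ± 0.08, adjusted p = 0.86). CIPC was lower at 48 h (-0.40 ± 0.10, adjusted p = 0.0067) and at 12 h (-0.41 ± 0.10, adjusted p = 0.0052). TIMELESS, which acts in replication as well as in the clock, was lower at both times, with changes of -0.53 at 48 h and -0.96 at 12 h. CIART, a repressor of CLOCK and BMAL1, had 3.92, 3.94 and 3.94 in CdCl cells and 4.80, 4.87 and 4.09 in control cells at 48 h, with levels at 12 h of 3.92 to 3.98 in CdCl cells and 3.63 to 3.94 in control cells. All arrays but 2 of the 48 h controls were thus close to the filter of 4, and CIART passed as lower with CdCl at 48 h (adjusted p = 0.0059), with no size given.

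Because the medium held hydrocortisone, which induces PER1 and other genes through the glucocorticoid receptor, 7 genes of that response with a value were read, of which 5 were tested. FKBP5, a chaperone of the receptor, had 8.63, 8.51 and 8.39 in CdCl cells and 10.45, 10.64 and 10.63 in control cells at 48 h. It was lower with CdCl at 48 h and at 12 h, with log2 changes of -2.06 ± 0.12 and -1.23 ± 0.12 (adjusted p = 7.6e-08 and 5.8e-06). TSC22D3, which encodes the protein GILZ, changed by -1.88 ± 0.15 and -0.79 ± 0.15 at these times, and SGK1, a kinase that stimulates sodium channels, by -2.10 ± 0.10 and -0.47 ± 0.10, all of which passed the test. DUSP1, a phosphatase also induced by stress, was higher by 1.59 ± 0.11 at 48 h and 2.00 ± 0.11 at 12 h. The receptor gene NR3C1 changed by 0.02 and 0.04 and passed neither test. Over time in control cells these genes did not go one way: TSC22D3 rose by 1.89 ± 0.15, whereas FKBP5 fell by 0.50 and SGK1 by 1.03 on the log2 scale.

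Of 4 genes read as clock outputs, 2 were higher and 2 lower with CdCl at each time, where 26.5% and 28.0% of all genes were at 48 h and 16.7% and 39.7% at 12 h. WEE1, a kinase that holds back mitosis and has E-boxes in mouse, was lower at both times, with changes of -1.14 ± 0.10 at 48 h and -0.78 ± 0.10 at 12 h. NAMPT, the enzyme of the NAD salvage pathway, was higher by 0.42 ± 0.09 at 48 h and 1.62 ± 0.09 at 12 h. The calls of the replication factor TIPIN at 48 h (-0.23, adjusted p = 0.034) and of the repressor KLF10 at 12 h (0.30, adjusted p = 0.042) ended in 5 and 8 of the 12 fits that left out 1 array. The arrays that ended the TIPIN call were all those at 48 h but CdCl replicate 3. Those that ended the KLF10 call included every array at 12 h. Leaving out an array of the other time does not alter the change itself.

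PER2 had the widest span of group means among the 7 clock genes tested, 2.55 on the log2 scale, followed by NR1D2 at 1.81. The 5 genes outside the set whose profile over the 12 arrays was most like that of PER2, of 10676 compared, were ABCC4, a transporter that exports cyclic nucleotides and organic anions, TMEM120B, CA11, CRYBG3 and CCDC198. Their Pearson correlations with PER2 ran over 0.9683 to 0.9776, a description over arrays that fall into 4 groups. Being picked for likeness to PER2, all 5 had their highest group mean in control cells at 48 h, as PER2 did. ABCC4 averaged 9.81 in CdCl cells and 10.28 in control cells at 48 h, and 9.81 in CdCl cells and 9.91 in control cells at 12 h. CCDC198 averaged 8.72 in CdCl cells and 9.76 in control cells at 48 h, and 8.65 and 8.83 in CdCl and control cells at 12 h.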

How the data were processed

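RNA of HK-2 cells was hybridised to Affymetrix arrays, 12 in all, in 4 groups of 3 biological replicates, grouped by the labelled treatment and duration. The authors deposited log2 values per probe set made with GCRMA, per the submitters' processing notes, whose version is not given. GCRMA corrects background by probe sequence and compresses low signals, so changes of dim genes can be understated. Groups near the floor also have little spread, as for DBP in control cells (SD 0.012 at 12 h and 0.2 at 48 h). The fit shares 1 spread over the groups, so p-values of such genes can also be too small. Scanner files and detection calls were not used here, and depth has no meaning for arrays, whose number limits the precision.

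Of 54675 probe sets 41091 were annotated to 1 symbol, 1801 to several and 11783 to none, and symbols were updated through Entrez IDs to RefSeq names of GRCh38.p14. The probe set with the highest mean stood for a gene. Genes above 4 on at least 3 of the 12 arrays were tested, 10683 of 19775, in 1 limma fit (version 3.58.1, R 4.3.3) of the 4 group means, with Benjamini-Hochberg adjustment over all genes tested and a threshold of 0.05. Errors of changes are limma standard errors, intervals are 95% and unadjusted. The fit was tested on simulated data with changes added to CdCl arrays at 12 h. It recovered 78.8% of changes of 0.5 log2 units, 89.6% of 1 and 98.5% of 2, and called 11 unchanged genes. Few genes were changed there, unlike in these data, so the simulation does not show how the fit behaves when many change. The labels call the replicates biological without naming separate passages, so p-values measure the spread between these samples. All 10 named clock genes are described, and genes of the related lists are named where tested. Genes like PER2 were the 5 with the highest Pearson correlation. Members and lists were chosen with earlier results of these data known. Alternatives were the filter, centring of each array on the median of its tested genes, quantile normalization, a replicate block and a mean-dependent prior. Others were the mean of all probe sets, the compared arrays alone, leaving out each array, and every probe set as its own feature. The last was added after seeing the data. Same-numbered replicates of different groups correlated at -0.336 to 0.158 in their deviations, with 3 of 18 pairs over 0.1, so the numbers were not taken as pairs.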

Additional observations from a re-analysis of the deposited data

Results flagged for a closer look

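The CdCl effect differed between 48 h and 12 h, by the limma test of the difference itself, for 3 clock genes. The effect at 48 h minus that at 12 h was -2.23 for PER2, -0.93 for BHLHE40 and -0.86 for NR1D2, all on the log2 scale. These 3 calls held on leaving out each of the 12 arrays in turn.

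Of the related genes, the difference was 0.39 for NPAS2, -0.81 for TEF, 0.85 for HLF, -0.54 for CSNK1A1 and 0.43 for TIMELESS. It was -0.83 for FKBP5, -1.09 for TSC22D3, -1.62 for SGK1, -1.2 for NAMPT and 0.61 for TIPIN. The differences of NFIL3 (-0.23), KLF10 (0.47), GSK3B (-0.39) and CIART (-0.78) each missed the threshold in some limma fits without a single array: 11 of 12 for NFIL3, 9 for KLF10, 4 for GSK3B and 3 for CIART. CIART, close to the filter on most arrays, also missed it once dim genes were kept in (adjusted p = 0.061), and its size is uncertain. With the mean of all probe sets of a gene the differences of NPAS2, HLF and CSNK1A1 missed it too (0.19, 0.36 and -0.25, adjusted p = 0.12, 0.091 and 0.081).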

How the results depend on the processing

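Of 35 clock gene changes 21 passed the test, and among 683 values under alternatives 667 kept their side of the threshold, 10 lost a call, 6 gained one and 0 reversed a called direction, while 16 values that had not passed changed sign. In many of these fits the change could not move, so its direction was fixed and only its p-value could differ. Such fits were the other filters, the replicate block, the prior, the compared arrays alone and those without an array from outside the comparison. With the mean of all probe sets, where PER3 fell under the filter and 6 genes were tested, 2 clock genes passed at 12 h in place of 4, since BHLHE41 lost its call as well. For the difference between the CdCl effects 5 passed in place of 3. This held both with that mean and with each array centred on the median of its tested genes. Leaving out single arrays gave 5 clock genes at 48 h, 4 at 12 h and 3 for the difference in every fit, 4 to 5 for time in CdCl cells and 3 to 4 for time in control cells. A replicate block gave 5, 4, 3, 4 and 4 genes in the same order. Centring moved the share of lower genes among all calls at 12 h to 52.1%, against 70.4% as deposited, and for the difference to 51.1%, against 32.6%. Outside the set, the mean of all probe sets reversed 3 directions, none of which had passed with the brightest probe set. These were CSNK1D at 12 h to -0.18 (adjusted p = 0.014), FBXW11 for the difference to -0.72 and CSNK1E for time in control cells to 0.27. The causes were not tested. Signals near the filter, as for DBP, CIART and TEF, limit what can be said of their size.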

Other observations

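Probe sets annotated to both PER1 and MIR6883, a microRNA gene that lies within PER1 on chromosome 17, were assigned to neither symbol by the rule. They were not tested here. The brightest of the 4 had log2 signals of 4.95, 5.29 and 5.16 in CdCl cells and 5.96, 6.04 and 5.51 in control cells at 48 h. At 12 h it had 4.65, 4.71 and 4.68 in CdCl cells and 5.28, 5.26 and 5.12 in control cells. Its CdCl arrays lay below its control arrays at each time. The next brightest had 4.51, 4.42 and 4.30 in CdCl cells and 4.96, 5.14 and 5.17 in control cells at 48 h, and 4.49, 4.54 and 4.38 in CdCl cells and 4.61, 4.70 and 4.83 in control cells at 12 h. The other pair lay between 2.12 and 3.16. The 3 probe sets annotated to both NR1D1 and THRA, genes whose ranges overlap on chromosome 17, lay between 1.86 and 3.72 on all arrays, under the filter.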
